A study of Mus musculus with 7 samples.

Results

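The genes described here encode collagens and the other structural proteins of the extracellular matrix of the heart, with the chaperone that folds collagen. The list held 40 genes, given by name. A gene was measured by the probe sets that the platform annotation assigns to that gene alone, and the brightest of them, by the mean over the 7 arrays, stood for the gene. On this rule 38 of the 40 genes had a value, among 18193 genes in all. No single-gene probe set was listed for Spp1 or Fbn1, which were not analysed here. The 38 genes comprised 6 fibrillar collagens, 7 other interstitial collagens, 13 genes of the basement membrane, 5 proteoglycans, 5 glycoproteins, elastin (Eln) and the collagen chaperone Serpinh1. No filter on low values was applied, and the mean levels of the 38 genes ran from 6.58 for Cthrc1 to 13.89 for Dcn on the log2 scale.

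Total RNA was taken from whole hearts of 7 male mice at 7 months of age, and 1 Affymetrix array was run per heart. All 7 mice carried the mdx mutation of the dystrophin gene, a model of Duchenne muscular dystrophy. In 4 of them (mdx HRTΔIKKβ) a Myh6-cre transgene had deleted IKKβ, a kinase that activates NF-κB. The other 3 (mdx IKKβf/f) had floxed IKKβ with no Cre listed, and the study calls them littermates. The Myh6 promoter drives Cre in cardiomyocytes, so fibroblasts, endothelial cells and the other matrix-producing cells of the heart were not targeted. Healthy hearts were not analysed here. The mice were separate animals, and the number of arrays limits the precision of every value below. Ikbkb, which encodes IKKβ, ranged from 8.44 to 8.86 in mdx HRTΔIKKβ hearts and from 8.82 to 9.03 in mdx IKKβf/f hearts, so that the groups overlapped. Its mean was lower in mdx HRTΔIKKβ hearts for 4 of its 5 probe sets. By qPCR of whole hearts, the study reports that Ikbkb was reduced in the mdx HRTΔIKKβ group. Array medians lay between 6.73 and 6.751, which the quantile normalization of the deposited values makes nearly equal. The lowest correlation between arrays was 0.9875.

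The extracellular matrix holds heart muscle together and transmits force between its cells. Fibroblasts secrete fibrillar collagens, which assemble into the fibres of scar, while a basement membrane of collagen IV, laminin, nidogen and perlecan wraps each cardiomyocyte and capillary. Proteoglycans bind collagen fibrils and control their thickness, and glycoproteins such as fibronectin and tenascin-C are deposited during repair. In dystrophic hearts this matrix accumulates as fibrosis, and the study asked whether NF-κB in cardiomyocytes promotes it. By histology of older hearts, it reports comparable fibrosis with and without the deletion. It describes its qPCR of a panel of fibrotic genes as matching that result. In whole hearts, fewer cells of a type and less RNA per cell cannot be told apart.

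No matrix gene passed the test when hearts with and without IKKβ deletion were compared. Each difference below is a mean log2 value of mdx HRTΔIKKβ hearts less that of mdx IKKβf/f hearts, followed by its limma standard error. Over all 45037 probe sets, 0 (0%) had a limma adjusted p under 0.05, the smallest being 0.336, and 2735 had an unadjusted p under 0.05. The methods' t-test gave 2086 at an unadjusted p under 0.05 and 0 after adjustment. Among the 38 matrix genes the smallest limma adjusted p was 0.796. The mean was higher in mdx HRTΔIKKβ hearts for 27 matrix genes and lower for 11, where 47.7% of all genes had a higher mean. The median difference over the matrix genes was 0.081, against −0.0056 over all genes, and single genes ran from −0.36 for Fmod to 0.49 for Tnc. The count rested on 1 control heart. Without mdx IKKβf/f replicate 2, 17 of the 38 genes had the higher mean in mdx HRTΔIKKβ hearts and the median was −0.0084.

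At an unadjusted p under 0.05, 1 matrix gene was higher (Serpinh1) and 1 lower (Lama2), beside 3.25% and 2.95% of all genes. The same genes were those whose groups did not overlap, 1 higher and 1 lower, beside 3.05% and 2.62% of all genes. A 1.5-fold difference between the means was reached by 0 matrix genes in either direction, whereas 1.14% of all genes were at least 1.5-fold higher and 0.313% at least 1.5-fold lower. For 22 of the 38 genes the whole 95% interval of the difference lay within 1.5-fold in both directions. For the rest the interval reached 1.5-fold on at least 1 side, so a difference of that size lay inside it. Matrix genes varied more than most between hearts of the same group, with a median within-group SD of 0.234 against 0.109 over all genes.

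**Figure D1:**
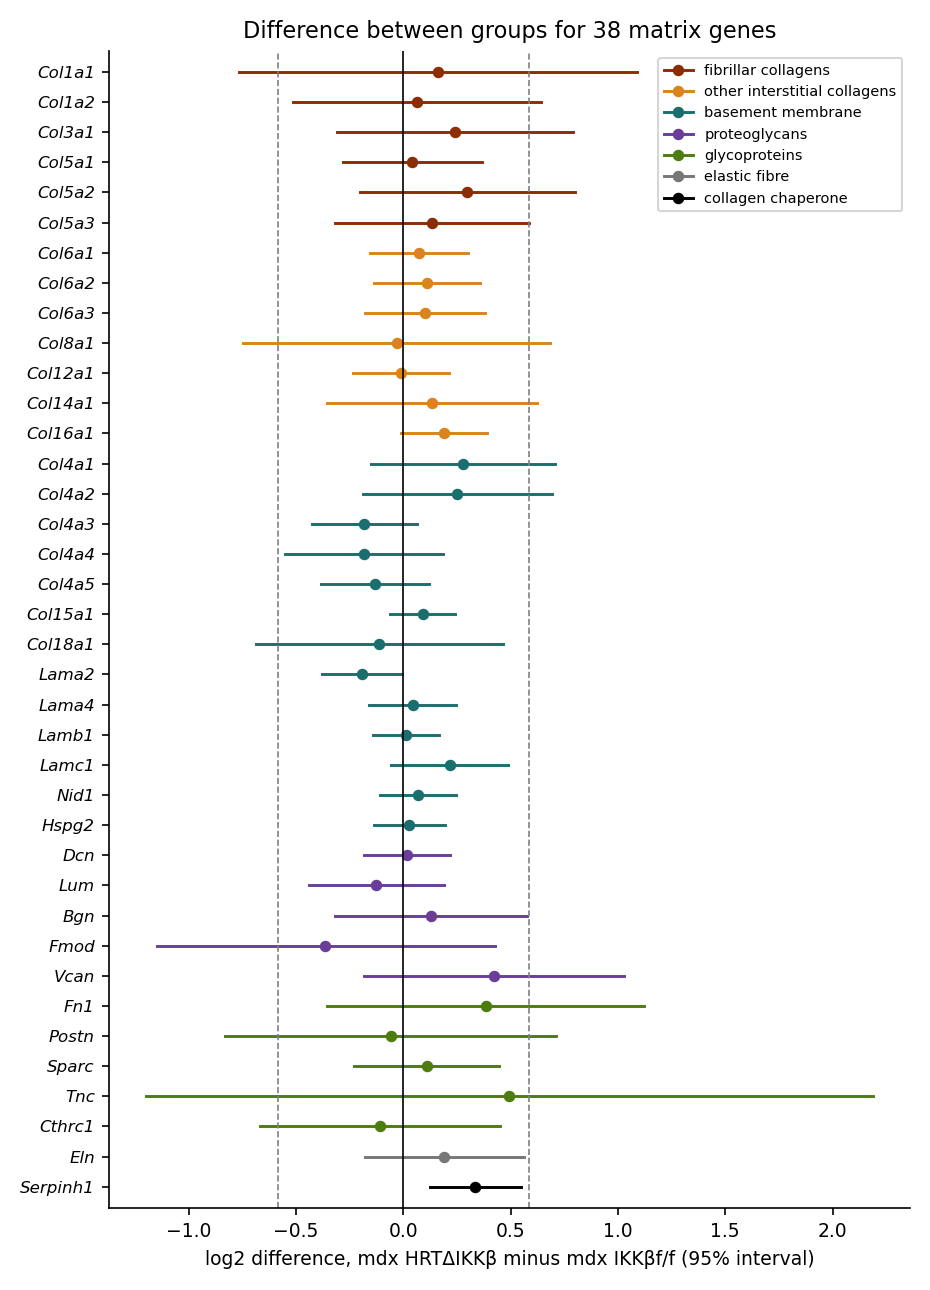
Difference between groups for each of the 38 matrix genes on the log2 scale (points, mdx HRTΔIKKβ minus mdx IKKβf/f, n = 4 and 3; bars, 95% intervals of the limma fit), coloured by class. Dashed lines mark 1.5-fold. The intervals of Serpinh1, above 0, and Lama2, below 0, are the only ones that leave out 0, and Tnc has the widest interval, from −1.20 to 2.19.

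Fibrillar collagens form the tensile fibres of the interstitium and of scar. In all 6 the mdx HRTΔIKKβ mean was the higher one over the 7 hearts, but Col1a1, Col1a2 and Col5a1 turned to a lower mean with array weights and with some hearts left out. The median difference was 0.15 and the range 0.042 to 0.30. The median was 0.016 with array weights and 0.034 without mdx HRTΔIKKβ replicate 2. No fibrillar gene passed the test, and each overlapped between groups. Col1a1, which encodes the main chain of type I collagen, measured 10.15, 10.57, 9.26 and 9.51 in the mdx HRTΔIKKβ hearts and 10.40, 9.03 and 9.70 in the mdx IKKβf/f hearts. Each group held hearts at both ends of this range, and the difference between means was 0.16 ± 0.4. Col1a2, the partner chain, measured 11.89, 12.16, 11.33 and 11.63 in the mdx HRTΔIKKβ hearts and 12.08, 11.21 and 11.77 in the mdx IKKβf/f hearts. It was highest in mdx HRTΔIKKβ replicate 2 and mdx IKKβf/f replicate 1, as Col1a1 was, with a difference of 0.064 ± 0.25.

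Col3a1 encodes type III collagen, the fibrillar collagen of pliable tissue. Its values were 12.77, 12.50, 12.13 and 12.01 in the mdx HRTΔIKKβ hearts and 12.44, 11.65 and 12.23 in the mdx IKKβf/f hearts. The low heart was mdx IKKβf/f replicate 2, and the difference of 0.24 ± 0.24 became 0.011 without it. Col5a2 encodes a chain of type V collagen, which starts fibrils and limits their width, and had the smallest unadjusted p of the class (0.204, limma). It measured 10.54, 10.36, 9.80 and 9.86 in the mdx HRTΔIKKβ hearts and 9.998, 9.50 and 10.03 in the mdx IKKβf/f hearts. Replicates 1 and 2 of the mdx HRTΔIKKβ group lay above every control, replicates 3 and 4 within the control range, and the difference was 0.30 ± 0.21. The other type V chains had smaller differences, 0.042 ± 0.14 for Col5a1 and 0.13 ± 0.19 for Col5a3. All 6 fibrillar genes were highest in mdx HRTΔIKKβ replicate 1 or 2, and 5 of 6 were lowest in mdx IKKβf/f replicate 2. Without that control the class median was −0.023, and Col1a1 and Col1a2 differed by −0.18 each and Col5a1 by −0.057. Col1a1 and Col1a2 also differed by −0.074 and −0.072 without mdx HRTΔIKKβ replicate 2, and Col5a1 by −0.069 without mdx HRTΔIKKβ replicate 1.

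**Figure D2:**
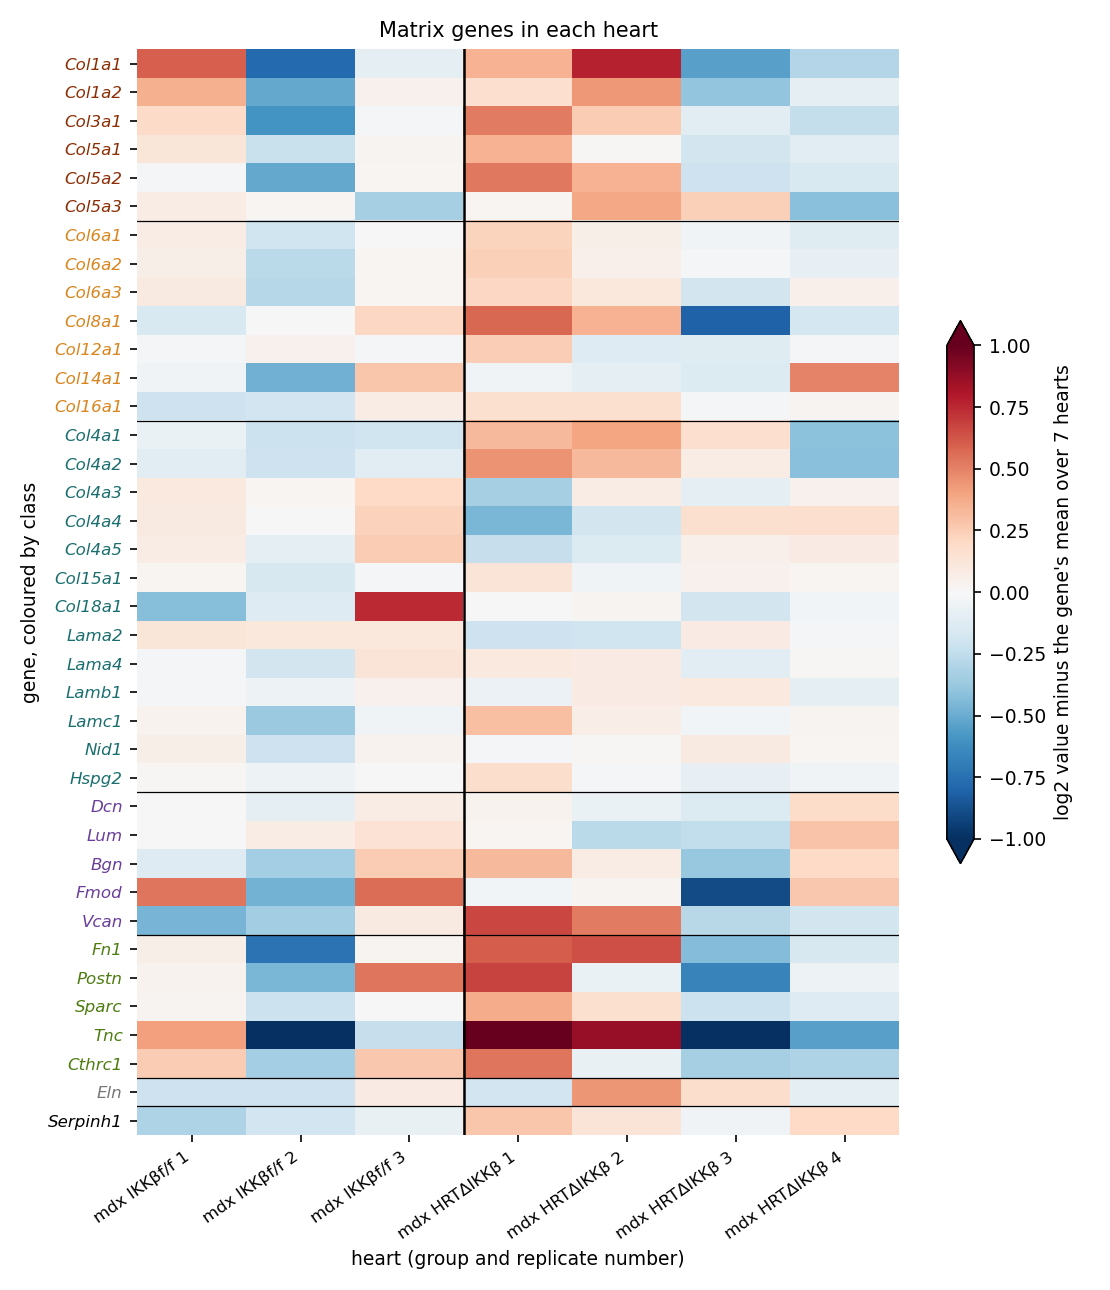
Each matrix gene (rows, names coloured by class) in each heart (columns, mdx IKKβf/f left of the line and mdx HRTΔIKKβ right of it), as the log2 value minus the gene's mean over the 7 hearts, with colours saturated beyond 1 unit either way. Reds run together in mdx HRTΔIKKβ replicates 1 and 2 and blues in mdx IKKβf/f replicate 2, while the basement membrane rows are paler than the fibrillar and glycoprotein rows.

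The other interstitial collagens had a median difference of 0.10, with 5 of 7 means higher, and of −0.0045 without mdx IKKβf/f replicate 2. Collagen VI forms beaded microfilaments that link the muscle basement membrane to the interstitium. Col6a1 measured 10.52, 10.36, 10.26 and 10.18 in the mdx HRTΔIKKβ hearts and 10.37, 10.10 and 10.30 in the mdx IKKβf/f hearts, a difference of 0.073 ± 0.099 with overlapping groups. Col6a2 measured 11.14, 10.95, 10.89 and 10.82 in the mdx HRTΔIKKβ hearts and 10.96, 10.63 and 10.92 in the mdx IKKβf/f hearts. It too was lowest in mdx IKKβf/f replicate 2 and overlapped, with a difference of 0.11 ± 0.11, and Col6a3 differed by 0.10 ± 0.12. For each of the 3 chains the SE was about as large as the difference or larger.

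Col16a1, a collagen that sits on fibril surfaces, had the smallest unadjusted p of this class (0.0602, limma). It measured 7.95, 7.95, 7.77 and 7.81 in the mdx HRTΔIKKβ hearts and 7.58, 7.60 and 7.86 in the mdx IKKβf/f hearts. Replicate 3 of the controls lay inside the mdx HRTΔIKKβ range and the other controls below it, and the difference was 0.19 ± 0.086. Col14a1, another fibril-associated collagen, differed by 0.13 ± 0.21, and Col12a1, of the same family, by −0.0099 ± 0.096. Col8a1, a short-chain collagen of vessels, differed by −0.032 ± 0.31 and ranged over 1.39 log2 units among the 7 hearts. For all of these genes the groups overlapped.

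**Figure D3:**
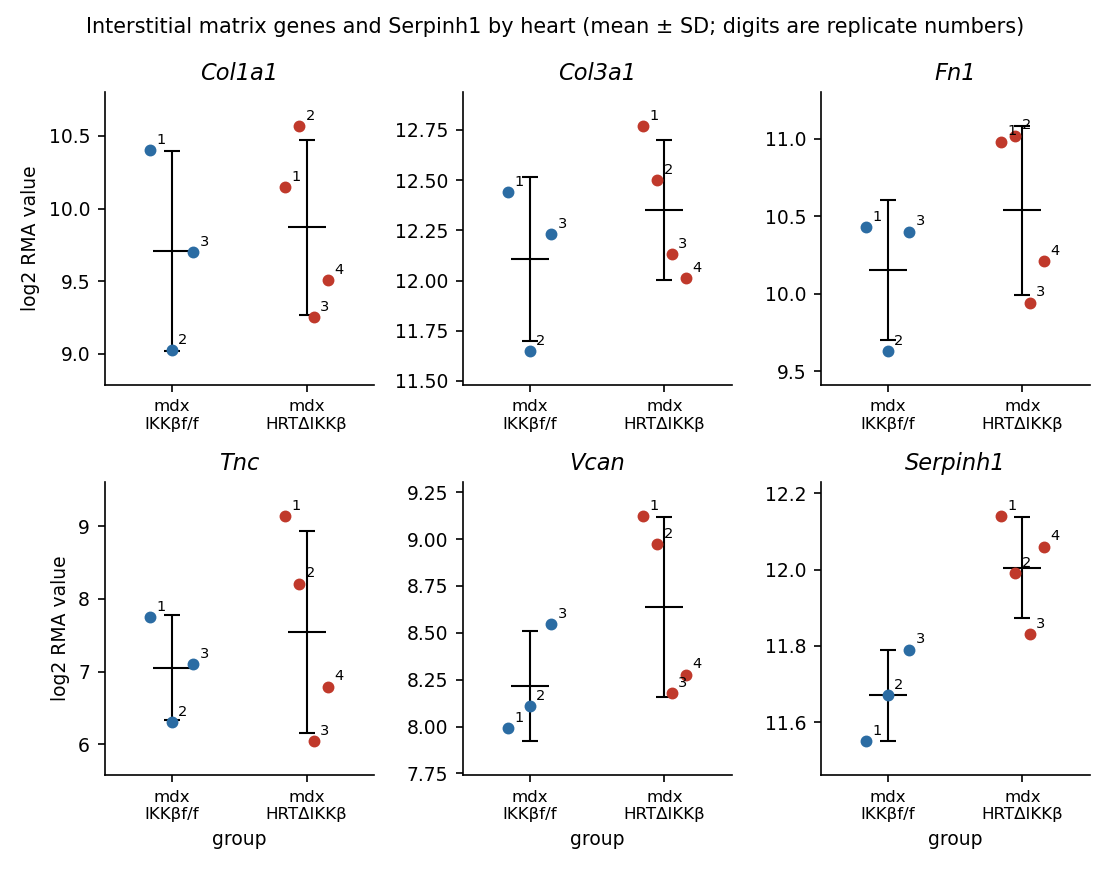
Log2 RMA values of Col1a1, Col3a1, Fn1, Tnc, Vcan and Serpinh1 in each heart (points, numbered by replicate), with the mean and SD of each group (n = 3 mdx IKKβf/f and 4 mdx HRTΔIKKβ). Replicates 1 and 2 of the mdx HRTΔIKKβ group lie above replicates 3 and 4 for the first 5 genes, and the groups are apart only for Serpinh1. Vertical axes do not start at 0.

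The basement membrane class had a median difference of 0.028, which turned to −0.00029 after a second quantile normalization and −0.0063 with array weights. Leaving out mdx IKKβf/f replicate 2 gave −0.016, and leaving out replicate 3 gave 0.11. Of its 13 means 8 were higher and 5 lower, and the collagen IV chains lay on both sides. Collagen IV builds the sheet of the basement membrane from trimers of different chains. Col4a1 and Col4a2 encode the chains of its common trimer, present in almost every tissue, and Col4a3, Col4a4 and Col4a5 those of a trimer best known from kidney. Col4a1 measured 12.77, 12.84, 12.61 and 12.03 in the mdx HRTΔIKKβ hearts and 12.38, 12.23 and 12.24 in the mdx IKKβf/f hearts. Col4a2 measured 12.05, 11.92, 11.67 and 11.18 in the mdx HRTΔIKKβ hearts and 11.49, 11.39 and 11.48 in the mdx IKKβf/f hearts. For both genes mdx HRTΔIKKβ replicates 1 to 3 lay above every control and replicate 4 below every control, so the groups overlapped. The differences were 0.28 ± 0.18 and 0.25 ± 0.19, and without that replicate they were 0.46 and 0.43. The chains of the other trimer had lower means, with differences of −0.18 ± 0.11 for Col4a3, −0.18 ± 0.16 for Col4a4 and −0.13 ± 0.11 for Col4a5. Their groups overlapped, and all 3 were lowest in mdx HRTΔIKKβ replicate 1, in which Col4a2 was highest. Col4a3 was dim, with values from 6.30 to 6.83 and brighter than only 48.1% of probe sets. Col4a4 and Col4a5 were brighter than 66.6% and 85.7%.

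Col4a1 and Col4a2 lie head to head on chromosome 8 and share a promoter region. Their promoter windows are printed from RefSeq (GRCm38.p6) to show the shared stretch, 5′ to 3′ on each gene's own strand, with the 78 bases that both windows hold in capitals. The Col4a1 window lies at chr8:11312777-11313076 on the minus strand and the Col4a2 window at chr8:11312555-11312854 on the plus strand.
Col4a1: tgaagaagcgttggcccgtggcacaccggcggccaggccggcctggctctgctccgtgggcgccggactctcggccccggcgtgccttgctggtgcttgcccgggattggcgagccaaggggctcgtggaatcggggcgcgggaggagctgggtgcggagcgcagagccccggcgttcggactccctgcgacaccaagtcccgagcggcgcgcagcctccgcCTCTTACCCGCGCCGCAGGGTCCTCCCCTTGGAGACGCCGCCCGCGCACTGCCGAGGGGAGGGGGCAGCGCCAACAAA
Col4a2: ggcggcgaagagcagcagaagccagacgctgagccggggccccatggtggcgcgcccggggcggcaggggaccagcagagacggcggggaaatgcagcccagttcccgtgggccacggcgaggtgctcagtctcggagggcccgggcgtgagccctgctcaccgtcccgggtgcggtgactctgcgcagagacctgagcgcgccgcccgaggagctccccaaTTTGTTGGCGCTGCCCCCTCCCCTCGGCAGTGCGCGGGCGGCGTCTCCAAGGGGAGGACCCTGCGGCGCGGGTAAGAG
The capitals of the upper line are the reverse complement of those of the lower line. The pair had alike values across hearts, as described above. Of the other neighbours among the matrix genes, Col4a3 and Col4a4 also lie side by side and differed by −0.18 each, and Col3a1 and Col5a2 by 0.24 and 0.30. The Col6a1 and Col6a2 pair differed by 0.073 and 0.11. Dcn and Lum, the last of the 5 neighbouring pairs, differed by 0.017 and −0.13.

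Laminins bind the basement membrane to receptors on the muscle cell, and Lama2 encodes the α2 chain, which dystroglycan holds at the surface of the muscle fibre. Lama2 measured 10.33, 10.34, 10.62 and 10.52 in the mdx HRTΔIKKβ hearts and 10.66, 10.64 and 10.64 in the mdx IKKβf/f hearts. Every mdx HRTΔIKKβ heart lay below every control, with replicate 3 next to the control range. The difference of −0.19 ± 0.08, 0.875 times the control level, had an unadjusted p of 0.045 and an adjusted p of 0.796 (limma). It was lower in 4 of 4 hearts, but the unadjusted p was 0.0687 in the methods' t-test. With each heart left out in turn it ran from 0.00996 to 0.103 and was under 0.05 only without mdx HRTΔIKKβ replicate 3 or 4. Lamc1 encodes the γ1 chain of most laminins and measured 10.07, 9.83, 9.75 and 9.80 in the mdx HRTΔIKKβ hearts and 9.81, 9.40 and 9.73 in the mdx IKKβf/f hearts. The groups overlapped through mdx HRTΔIKKβ replicates 3 and 4, and the difference was 0.22 ± 0.12. The β1 chain Lamb1 differed by 0.012 ± 0.067 and Lama4, the α4 chain of vessels, by 0.044 ± 0.087.

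The remaining basement membrane genes had differences from −0.11 to 0.089. Nid1, which links laminin to collagen IV, differed by 0.07 ± 0.076, and Hspg2, which encodes perlecan, by 0.028 ± 0.072. Col15a1, a basement membrane collagen, differed by 0.089 ± 0.065 and had the lowest within-group SD of the 38 genes, 0.079. Col18a1, the precursor of endostatin, differed by −0.11 ± 0.25, and its value of 9.10 in mdx IKKβf/f replicate 3 stood above 7.92 and 8.22 in the other controls. In that heart the smooth muscle and pericyte marker score was 0.69, against −0.24 to −0.0089 in the other hearts, and its part in the Col18a1 value was not tested. Without it the difference was 0.23.

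**Figure D4:**
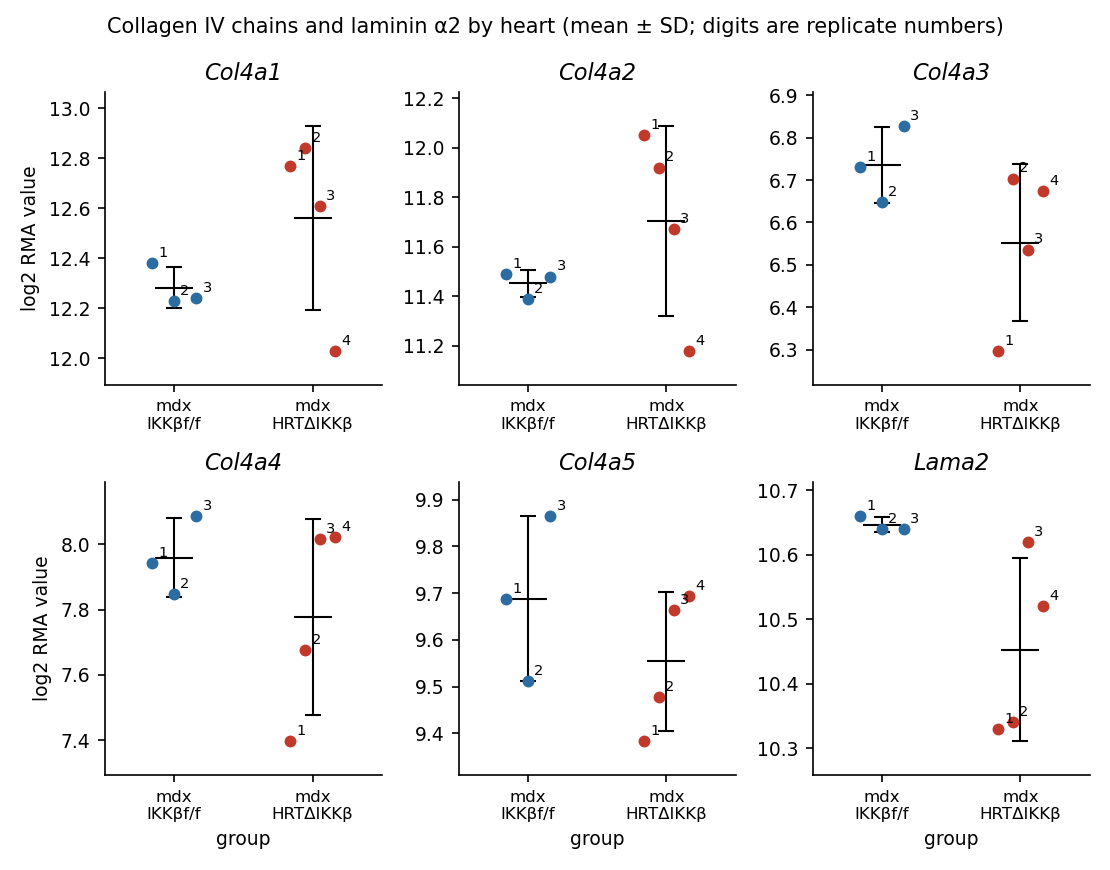
Log2 RMA values of the 5 collagen IV chains and Lama2 in each heart (points, numbered by replicate), with the mean and SD of each group (n = 3 mdx IKKβf/f and 4 mdx HRTΔIKKβ). Col4a1 and Col4a2 share 1 pattern, with mdx HRTΔIKKβ replicate 4 at the bottom, and Lama2 is the only panel in which the groups do not overlap. Vertical axes do not start at 0.

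Proteoglycans had a median difference of 0.017, with 3 of 5 means higher, and of −0.045 without mdx HRTΔIKKβ replicate 4. With the mean of all probe sets of each gene the median was 0.12. Decorin (Dcn), biglycan (Bgn), lumican (Lum) and fibromodulin (Fmod) are small leucine-rich proteoglycans that bind collagen fibrils, and versican (Vcan) is a large one of loose, remodelling matrix. Dcn, the matrix gene with the highest mean level, measured 13.93, 13.83, 13.76 and 14.08 in the mdx HRTΔIKKβ hearts and 13.89, 13.80 and 13.97 in the mdx IKKβf/f hearts, a difference of 0.017 ± 0.086. Bgn measured 12.68, 12.43, 11.98 and 12.56 in the mdx HRTΔIKKβ hearts and 12.23, 12.02 and 12.61 in the mdx IKKβf/f hearts, a difference of 0.13 ± 0.19. Both genes overlapped between groups, and Lum differed by −0.13 ± 0.13. The dimmer probe set of Dcn differed by 0.33 ± 0.15 (unadjusted p = 0.0524, limma), with overlapping groups. It was brighter than 65.6% of probe sets.

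The largest differences of the class ran in opposite directions. Vcan measured 9.12, 8.98, 8.18 and 8.28 in the mdx HRTΔIKKβ hearts and 7.99, 8.11 and 8.55 in the mdx IKKβf/f hearts. Replicates 1 and 2 of the mdx HRTΔIKKβ group were above all controls and replicates 3 and 4 were not, and the difference was 0.42 ± 0.26 (unadjusted p = 0.146, limma). The next brightest of the 8 Vcan probe sets also had higher means, by 0.625 and 0.38, but some dim ones had lower means. The dim probe set with the smallest p differed by −0.22 (unadjusted p = 0.0442, limma) and was brighter than only 16.5% of probe sets. The mean of all Vcan probe sets differed by 0.12. Fmod measured 7.96, 8.01, 7.09 and 8.26 in the mdx HRTΔIKKβ hearts and 8.52, 7.51 and 8.54 in the mdx IKKβf/f hearts. Controls 1 and 3 were above every mdx HRTΔIKKβ heart and control 2 was below 3 of them, and the difference was −0.36 ± 0.34 (unadjusted p = 0.317, limma). All 6 probe sets of Fmod had a lower mean in mdx HRTΔIKKβ hearts, but they read the same 7 RNA samples.

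Glycoproteins varied most of the 5 larger classes between hearts of a group, with a median within-group SD of 0.508. Their median difference was 0.11, and −0.037 without mdx HRTΔIKKβ replicate 1. It was 0.017 with array weights and 0.25 without dim probe sets, which removed Cthrc1. Fibronectin (Fn1), which cells lay down early in a wound, measured 10.98, 11.02, 9.94 and 10.21 in the mdx HRTΔIKKβ hearts and 10.43, 9.63 and 10.40 in the mdx IKKβf/f hearts. Tenascin-C (Tnc), which appears at sites of injury, measured 9.14, 8.21, 6.04 and 6.79 in the mdx HRTΔIKKβ hearts and 7.75, 6.30 and 7.11 in the mdx IKKβf/f hearts. For both genes mdx HRTΔIKKβ replicates 1 and 2 were above every control and replicates 3 and 4 were not. The differences were 0.38 ± 0.32 and 0.49 ± 0.73, and that of Tnc was −0.037 without mdx HRTΔIKKβ replicate 1. Periostin (Postn), a product of activated fibroblasts, measured 11.40, 10.66, 10.06 and 10.68 in the mdx HRTΔIKKβ hearts and 10.76, 10.27 and 11.26 in the mdx IKKβf/f hearts, with a difference of −0.059 ± 0.33. Sparc, a collagen-binding protein, measured 12.72, 12.51, 12.14 and 12.22 in the mdx HRTΔIKKβ hearts and 12.38, 12.14 and 12.35 in the mdx IKKβf/f hearts, with a difference of 0.11 ± 0.14. All groups overlapped. Cthrc1, the last of the class and also made by activated fibroblasts, differed by −0.11 ± 0.24. All 5 glycoproteins were highest in mdx HRTΔIKKβ replicate 1 or 2, and the lowest heart was mdx HRTΔIKKβ replicate 3 for 3 of them and mdx IKKβf/f replicate 2 for the rest.

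Elastin (Eln), the core of elastic fibres, measured 8.34, 8.98, 8.70 and 8.43 in the mdx HRTΔIKKβ hearts and 8.32, 8.33 and 8.62 in the mdx IKKβf/f hearts. Replicate 2 of the mdx HRTΔIKKβ group was highest, the groups overlapped, and the difference was 0.19 ± 0.16.

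Serpinh1 encodes Hsp47, a heat shock protein of the endoplasmic reticulum that folds procollagen. It measured 12.14, 11.99, 11.83 and 12.06 in the mdx HRTΔIKKβ hearts and 11.55, 11.67 and 11.79 in the mdx IKKβf/f hearts. Every mdx HRTΔIKKβ heart lay above every control, the nearest pair being 11.83 in mdx HRTΔIKKβ replicate 3 and 11.79 in mdx IKKβf/f replicate 3. The difference of 0.33 ± 0.091, 1.26-fold, had the smallest unadjusted p among the matrix genes (0.00699), with an adjusted p of 0.796 (limma), and the 4 mdx HRTΔIKKβ hearts all lay on the higher side. Its other probe set differed by 0.32 ± 0.11 (unadjusted p = 0.0238, limma), with overlapping groups. With each heart left out in turn the difference ran from 0.27 to 0.40. With the replicate number as a block the unadjusted p was 0.0575 (limma). Macrophage and mesothelial marker scores were also higher in every mdx HRTΔIKKβ heart than in any control, and their part in the Serpinh1 values was not tested.

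The promoter window of Serpinh1 is printed because it was the matrix gene with the smallest p and because the study concerns NF-κB. It comes from RefSeq (GRCm38.p6), at chr7:99353190-99353489 on the minus strand, 5′ to 3′, with matches to the motifs searched in capitals.
Serpinh1: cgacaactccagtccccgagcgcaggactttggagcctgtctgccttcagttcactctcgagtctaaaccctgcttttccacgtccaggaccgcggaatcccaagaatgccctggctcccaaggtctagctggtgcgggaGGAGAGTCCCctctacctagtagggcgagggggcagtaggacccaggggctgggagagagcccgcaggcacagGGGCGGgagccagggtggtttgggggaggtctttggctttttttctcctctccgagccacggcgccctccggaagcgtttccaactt
The first capitals are a match to the NF-κB site on the opposite strand, at position −110 from the gene's start, and the others a GC box at −37. Windows were given for 26 of the 38 genes and searched on both strands. The GC box (GGGCGG) was found for 18 of 26 genes, 69.2%, against 38.2% of 27025 genes. The CCAAT box (CCAAT) was in 46.2% against 41.1% and the TATA box (TATAAA) in 11.5% against 15.7%. The core of a heat shock element (GAANNTTC) was in 7.69% against 9.04%, for Col4a5 and Lama2, and not in the Serpinh1 window. The NF-κB site was found for 3 of 26 genes, 11.5% against 9.55%, which were Col4a2, Col6a2 and Serpinh1. A match says only that these letters are present.

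The classes were compared by a score for each heart, the mean of a class's log2 values with each gene's own mean subtracted first. The fibrillar score was 0.32, 0.37, −0.20 and −0.22 in mdx HRTΔIKKβ hearts and 0.23, −0.43 and −0.059 in mdx IKKβf/f hearts. The basement membrane score stayed within a narrower range, 0.015, 0.037, 0.021 and −0.048 against −0.0094, −0.12 and 0.10. The proteoglycan score was 0.20, 0.056, −0.39 and 0.15 against −0.012, −0.24 and 0.22. In each class the groups overlapped, and mdx IKKβf/f replicate 2 was the lowest control. The group difference in score was 0.16 for fibrillar collagens, 0.015 for the basement membrane and 0.015 for proteoglycans.

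Within a heart, the fibrillar score minus the basement membrane score was 0.31, 0.33, −0.22 and −0.17 in mdx HRTΔIKKβ hearts and 0.23, −0.31 and −0.16 in controls. It was above 0 in mdx HRTΔIKKβ replicates 1 and 2 and in mdx IKKβf/f replicate 1, and below 0 in the rest. The group means differed by 0.14, less than the within-group SDs of 0.30 and 0.28. The fibrillar minus proteoglycan difference was also 0.14, with SDs of 0.30 and 0.28, and the proteoglycan minus basement membrane difference was 0.00097, with SDs of 0.28 and 0.12. No shift of 1 class against another was larger than the spread between hearts. With each heart left out in turn, fibrillar minus basement membrane lay between 0.025 and 0.30, the smallest value with mdx IKKβf/f replicate 2 omitted and the largest with replicate 1 of that group omitted. Fibrillar minus proteoglycan was smallest at 0.040, with replicate 3 of the mdx IKKβf/f group omitted, and largest at 0.30, with its replicate 1 omitted. With array weights the 2 differences were 0.034 and 0.060. The median within-group SD of a gene was 0.357 for fibrillar collagens, 0.302 for proteoglycans and 0.154 for the basement membrane, and the intervals of 1 of 6, 3 of 5 and 10 of 13 genes lay within 1.5-fold.

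**Figure D5:**
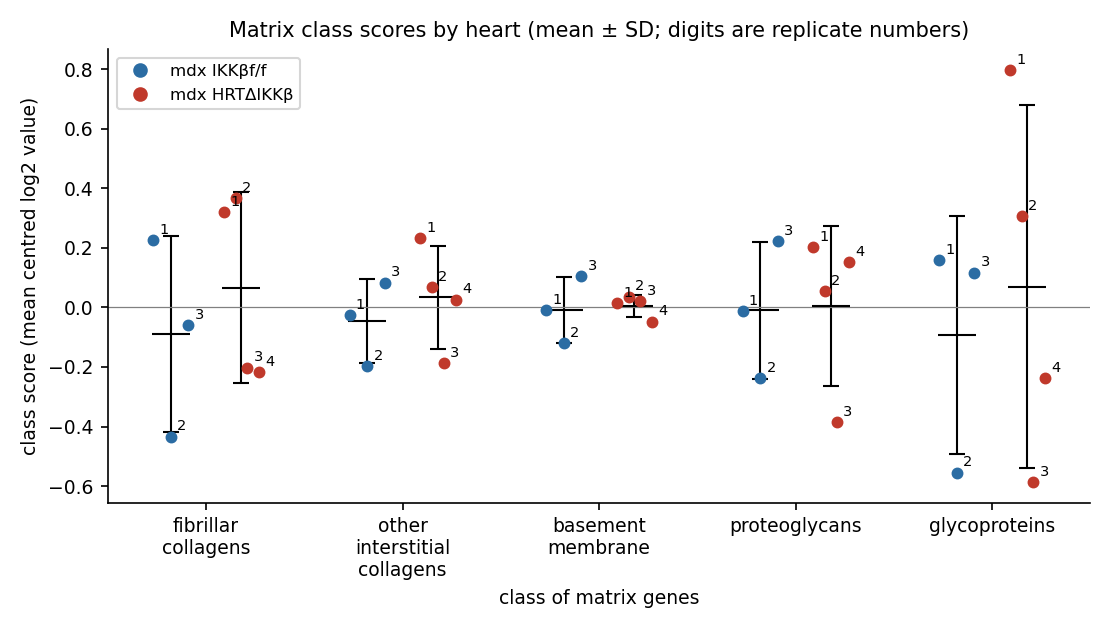
Class score (mean centred log2 value) of each heart (points, numbered by replicate) for 5 classes of matrix genes, with the mean and SD of each group (n = 3 mdx IKKβf/f and 4 mdx HRTΔIKKβ). The groups overlap in every class, and the basement membrane scores, from −0.12 to 0.10, span less than the glycoprotein scores, from −0.59 to 0.80.

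The highest and lowest hearts differed by class. Of the 38 genes, 19 were highest in mdx HRTΔIKKβ replicate 1, 7 in mdx HRTΔIKKβ replicate 2 and 6 in mdx IKKβf/f replicate 3. The lowest heart was mdx IKKβf/f replicate 2 for 15 genes and mdx HRTΔIKKβ replicate 3 for 8. Of the basement membrane genes 5 of 13 were highest in mdx IKKβf/f replicate 3, and of the proteoglycans 0 of 5 were lowest in mdx IKKβf/f replicate 2. The score of mdx HRTΔIKKβ replicate 4 was −0.22 for fibrillar collagens and 0.15 for proteoglycans. The glycoprotein score was 0.80 and 0.31 in mdx HRTΔIKKβ replicates 1 and 2, −0.59 and −0.24 in replicates 3 and 4, and 0.16, −0.56 and 0.12 in controls.

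Markers of the cell types a whole heart holds also varied between these hearts. Cardiomyocyte markers lay between 13.19 and 15.09 in every heart, and 2 of 10 had a higher mean and 8 a lower one in mdx HRTΔIKKβ hearts, with a median of −0.0097. Of the fibroblast markers, 11 of 12 had the higher mean in mdx HRTΔIKKβ hearts, with a median of 0.17. The exception, Fap, was lower in every mdx HRTΔIKKβ heart than in any control, as were 2.62% of all genes. Fap differed by −0.42 ± 0.14 (unadjusted p = 0.0152, adjusted p = 0.796, limma). Of the 11 higher ones Pi16 had the smallest p. It differed by 0.41 ± 0.16 (unadjusted p = 0.0379, adjusted p = 0.796, limma), with overlapping groups. The fibroblast marker score ran from −0.19 to 0.17 in mdx HRTΔIKKβ hearts and from −0.23 to 0.046 in controls. This score was lowest in mdx IKKβf/f replicate 2 and mdx HRTΔIKKβ replicate 3, as many matrix genes were. Endothelial markers had a higher mean for 6 of 10 genes and a score from −0.062 to 0.15 against −0.076 to 0.063.

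Macrophage markers had a higher mean for 11 of 11 genes (median 0.31, score −0.031 to 0.27 against −0.31 to −0.14), and mesothelial markers, of the heart's outer surface, for 6 of 6 (median 0.90, score −0.098 to 1.10 against −0.64 to −0.45). Both scores were apart between groups. Smooth muscle and pericyte markers had a higher mean for 2 of 10 genes, with scores from −0.17 to −0.0089 against −0.24 to 0.69. Atrial markers had a higher mean for 6 of 6 genes, with scores from −0.30 to 1.23 against −2.01 to 0.43, and mdx IKKβf/f replicate 2, the heart lowest for 15 matrix genes, was at −2.01. Skeletal muscle markers had a lower mean for 12 of 12 genes, with scores from −1.30 to 0.062 against −1.05 to 4.04, the highest in mdx IKKβf/f replicate 1. The part of these cells and tissues in the matrix values was not tested.

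The choice of probe set mattered for some genes, in the basement membrane and in other classes. Of the 38 genes, 29 had several probe sets, and of their 51 further probe sets 38 had the sign of the brightest one. Over all 89 probe sets of the matrix genes, 6 were higher and 2 lower at an unadjusted p under 0.05 (limma), beside 3.31% and 2.76% of all probe sets. The 6 were both of Serpinh1, 2 of Nid1 and 1 each of Lamc1 and Lama4. The 2 lower ones were that of Lama2 and a dim one of Vcan. The second probe sets of Lama4 (0.33 ± 0.12), Lamc1 (0.40 ± 0.15) and Nid1 (0.25 ± 0.079) were higher in every mdx HRTΔIKKβ heart than in any control, with unadjusted p of 0.0272, 0.0315 and 0.0145 and an adjusted p of 0.796 each (limma). Their brightest probe sets overlapped between groups. These 3 were singled out with their values known. The second probe sets of Col1a1 and Col1a2 had lower means, −0.12 and −0.044, where the brightest had higher ones.

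A list of further structural matrix genes, written from textbook knowledge, had 89 of its 94 genes on the array. Of these 39 had a higher and 50 a lower mean, with a median of −0.021, and 5 were higher and 5 lower at an unadjusted p under 0.05 (limma), beside 3.25% and 2.95% of all genes. The groups did not overlap for 4 higher and 2 lower genes, beside 3.05% and 2.62% of all genes. None passed adjustment, the smallest adjusted p being 0.79. The other collagens had 6 of 22 means higher, among which Col13a1 (0.13) and Col17a1 (0.083), membrane-spanning collagens, had the smallest p, and of the lower ones Col24a1 (−0.11) and Col9a2 (−0.15). The probe sets of these collagens were dim, brighter than only 28.4%, 2.91%, 0.608% and 17.6% of probe sets in the order named. Other basement membrane genes had 9 of 16 means higher, with Smoc1 (0.17) and Lamb3 (0.14) on that side. On the lower side were Npnt (−0.24, unadjusted p = 0.00647), an integrin ligand, and Smoc2 (−0.26, unadjusted p = 0.0408).

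Other proteoglycans had 4 of 15 means higher. Spock2, a secreted heparan sulphate proteoglycan, was apart on the higher side (0.43 ± 0.11, unadjusted p = 0.00513), followed by Podn (0.24). Kera, a small proteoglycan best known from cornea, was apart on the lower side (−0.39 ± 0.089, unadjusted p = 0.00253), but its probe set was dim, with values from 3.83 to 4.49 and brighter than only 8.6% of probe sets. Aspn followed (−0.24). Other glycoproteins and elastic fibre genes had 20 of 36 means higher, led by Emilin2 (0.31 ± 0.087, unadjusted p = 0.00765), an elastic fibre protein, and Vwf (0.66 ± 0.21, unadjusted p = 0.0169), the endothelial clotting protein. The lower ones with the smallest p were Vtn (−0.32), a plasma adhesion protein, and Sparcl1 (−0.15). These p-values are from limma and none passed adjustment.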

How the data were processed

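Total RNA from 7 whole mdx hearts was biotin-labelled and run on Affymetrix Mouse Genome arrays. The deposited values are on a log2 scale and were made by the authors with RMA, which corrects background, quantile-normalizes the arrays and summarizes each probe set. RMA shrinks the folds of dim genes, and its quantile step hides any global shift in RNA. Per the study's methods, RMA was run in Partek and independently in Affymetrix Expression Console. Versions, and which program made the deposited table, are not given in the sources used here.

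From these values, the 2 groups were compared by a two-sided limma 3.58.1 test (eBayes after lmFit, in R 4.3.3), fitted and Benjamini-Hochberg adjusted over all 45037 probe sets without a filter. Of the probe sets, 34945 had 1 gene symbol in the platform annotation, 932 several and 9160 none, and only the first kind was used for genes. Groups came from the labels. The procedure was tested on simulated data. The members and gene lists were chosen with earlier results of these data known. By the naming rule, values in every heart are given for 15 analysed members chosen for their place in the matrix and for the 2 members of each class with the smallest unadjusted p, and of the further matrix genes the 2 with the smallest p in each direction of each list were named. Ikbkb, the markers Fap and Pi16 and probe sets that disagreed with the brightest are not covered by this rule and were chosen with their values known.

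Neighbouring genes and promoter windows were taken from RefSeq tables (GRCm38.p6). A planned count of collagen repeats in protein sequences was not run, and proteins were not analysed here. As alternatives, arrays were centred on their medians or quantile-normalized again, and dim probe sets or those ending in _x_at and _s_at were removed. Others were the mean of all probe sets of a gene, trended and robust variance, array weights, the methods' t-test, the replicate number as a block and each heart left out.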

Additional observations from a re-analysis of the deposited data

Results flagged for a closer look

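Col14a1, a fibril-associated collagen, was the only matrix gene with a heart far from the rest of its group among the 38 tested in the 4 mdx HRTΔIKKβ hearts. Its log2 value was 9.174 in mdx HRTΔIKKβ replicate 4, against 8.545 to 8.648 in the other 3, so that the gap made up 0.836 of the group's range. Chance alone gives such a gap in about 1 of 20 groups. The control values were 8.65, 8.20 and 8.96, and the highest of them lay below that heart.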

How the results depend on the processing

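Matrix genes past an adjusted p of 0.05 numbered 0 under all alternatives tried, the smallest adjusted p being 0.512 (limma, 1 heart left out). Over all probe sets the count was 0 to 1 with each heart left out, the 1 without mdx HRTΔIKKβ replicate 1. The sign of the difference held in every setting for 21 of the 38 genes, changed with a heart left out for 17 and under another of the 9 alternatives for 9. The cause of these changes was not tested, and the number of arrays limits all of these values.

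With each heart left out in turn, the count of higher means ran from 17 to 30, of genes higher at an unadjusted p under 0.05 from 1 to 3 and of lower ones from 0 to 2. Medians ran from −0.0084 to 0.14 over the matrix genes, −0.011 to 0.0034 over all genes, −0.050 to 0.015 over the further matrix genes, −0.023 to 0.32 for fibrillar collagens, −0.0045 to 0.18 for other interstitial collagens, −0.016 to 0.11 for the basement membrane, −0.045 to 0.062 for proteoglycans and −0.037 to 0.19 for glycoproteins. The proteoglycan minus basement membrane difference ran from −0.066 to 0.14. For single genes the ranges were −0.18 to 0.51 for Col1a1, −0.18 to 0.26 for Col1a2, −0.069 to 0.12 for Col5a1, −0.0045 to 0.13 for Col6a1, −0.015 to 0.18 for Col6a3, −0.23 to 0.23 for Col8a1, −0.094 to 0.032 for Col12a1, −0.067 to 0.31 for Col14a1, −0.36 to 0.23 for Col18a1, −0.033 to 0.12 for Lama4, −0.018 to 0.047 for Lamb1, −0.016 to 0.12 for Nid1, −0.028 to 0.060 for Hspg2, −0.045 to 0.062 for Dcn, −0.0063 to 0.29 for Bgn, −0.31 to 0.19 for Postn and −0.037 to 0.995 for Tnc.

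With array weights, 0 genes were lower at an unadjusted p under 0.05, the basement membrane median was −0.0063, and the differences were −0.085 for Col1a1, −0.085 for Col1a2, −0.037 for Col5a1, −0.0063 for Lama4, −0.011 for Lamb1 and −0.026 for proteoglycans minus basement membrane. A second quantile normalization gave −0.00029 for the basement membrane median and Hspg2 and −0.0039 for Lamb1. Without dim probe sets, which removed Col4a3 and Cthrc1, the glycoprotein median was 0.25. The medians were then 0.0024 over all genes and 0.034 over the further matrix genes, and proteoglycans minus basement membrane was −0.016. It was −0.0090 without _x_at and _s_at probe sets and −0.047 with the mean of all probe sets. That mean also gave 2 genes higher at an unadjusted p under 0.05 and a proteoglycan median of 0.12. Its differences were 0.013 for Col8a1 and −0.0066 for Hspg2. The methods' t-test called 0 genes lower at that threshold.

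The replicate numbers 1 to 3 are shared by the groups, but nothing in the labels pairs the hearts, and same-numbered hearts did not deviate together (correlations of −0.0751, −0.377 and −0.0362). With the replicate block, which leaves out mdx HRTΔIKKβ replicate 4, 2 genes were higher and 0 lower at an unadjusted p under 0.05, the proteoglycan median was −0.045, and the differences were 0.022 for Col8a1, −0.012 for Col14a1, −0.045 for Dcn and −0.066 for proteoglycans minus basement membrane. The 2 higher genes were Col4a1 and Col4a2, while Serpinh1 and Lama2 no longer passed.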
